A study of Drosophila melanogaster with 6 samples.

Results

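The genes described here are 63 of the 13727 genes in the series. They are the rows that the authors' deposited table places in the single category of transcription factors and lists at a mean abundance of at least 20 in WT L3 neurons. Of 622 rows in that category, 68 reached this level. The 5 among them that belong to the L3 identity, patterning or homeobox genes left out by name (erm, slp1, dac, zfh2 and scro) are not among the members. L3 neurons are one of the lamina neuron types, which receive photoreceptor input in the first neuropil behind the fly eye. The 2 groups were 3 samples of the genotype dFezf1 and 3 samples labelled WT, whose titles give an FRT40 chromosome, all from L3 neurons sorted from the optic lobe at 24 h after puparium formation (APF). dFezf1 is an allele of dFezf, also called earmuff (erm), a zinc-finger transcription factor gene. No source used here names the driver or reporter that labelled the cells. The sample titles carry dates of 12, 13 and 14 December for dFezf1 and of 28, 29 and 30 November for WT, so title date and genotype cannot be told apart. The comparison bears on how transcript levels in L3 neurons differ when dFezf is mutated.

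Transcription of a protein-coding gene needs RNA polymerase II, the general factors that place it at the promoter, and the Mediator complex that passes signals to it from regulatory DNA. DNA-binding factors choose the genes, and their combinations give a neuron type its identity, while chromatin complexes set which DNA they can reach. At 24 h APF lamina neurons are extending processes and choosing target layers, before most synapses form. The members hold all of these layers. By background knowledge, and with their values already known, the 63 members were put into 6 groups by role: 19 DNA-binding factors and partners, 6 RNA polymerase II subunits, 11 general factors and cofactors, 5 Mediator subunits, 9 chromatin and boundary factors, and 13 genes whose protein has another main role. The category is therefore broader than sequence-specific transcription factors. Its 3 most abundant members are of the last group, the ubiquitin and ribosomal protein fusion genes RpL40 and RpS27A and the cyclophilin gene Cyp1.

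Most of these genes did not differ detectably between dFezf1 and WT. In the authors' deposited table, 2 of the 63 members had an adjusted p under 0.05, scribbler (sbb) and pangolin (pan), and both were higher in dFezf1. The 95% interval of both also excluded 0, and 3.82% of all tested genes were called with such an interval. Of all 9387 genes with an adjusted p per the authors' deposited table, 6.82% were called, 4.33% higher and 2.49% lower in dFezf1. Among the 1098 other genes with a WT abundance of at least 20, 4.46% were called per the authors' deposited table, 1.46% higher and 3.01% lower. No member was called lower. At an unadjusted p under 0.05 the authors' deposited table has 7 members (11.1%), 3 higher (sbb, pan and jim) and 4 lower (MED31, Bug22, NC2alpha and Adf1). That share is below the 14.2% of all tested genes (9.01% higher and 5.2% lower) and near the 11.8% of the other genes at that WT level. The WT abundance chose the members and also enters the comparison, so these counts are a description and not a test of the members as a set.

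Levels and fold changes are the authors' own. The authors' deposited table gives 1 mean abundance per group, whose unit is not given. The mean normalized count divided by this abundance went up with exon length (Spearman correlation 0.953 across 5001 genes), as it would for an abundance already divided by length, and levels are compared between genes on that basis. Over all genes the means summed to 154908 in dFezf1 and 168417 in WT, and gaps between group means were not adjusted for this. The table also gives a log2 fold change of dFezf1 over WT, shrunken toward 0, with its standard error (SE), and a mean normalized count over all libraries. Columns of values per library carry codes that match no sample label, so the spread between replicates, the depth of each library and any overlap between the groups are not given. The deposited SE is the only measure of precision here. In these bulk samples, fewer cells of a type and less RNA per cell cannot be told apart. In the authors' deposited table all 63 members had an adjusted p, and mean normalized counts started at 449.

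The sorted cells carried neuronal and L3 genes in both groups. The pan-neuronal gene elav had an authors' mean abundance of 63.6 in dFezf1 and 52.6 in WT per the authors' deposited table, and the lamina factor gene sim had 9.9 in dFezf1 and 10.6 in WT. The 10 neuronal and L3 markers summed to 363 in dFezf1 and 266 in WT per the authors' deposited table, and 0 of 10 were called. Among them brp had 103 in dFezf1 and 49.5 in WT, and the interval of its log2 fold change was 0.22 to 1.83. Intervals also lay above 0 for hth (0.06 to 1.82), Syt1 (0.16 to 1.68) and nSyb (0.02 to 1.64). Those of the other markers on this list held 0. The log2 fold change was below 0 for erm, dac and eya, with dac at 17.6 in dFezf1 and 26.9 in WT. The lamina factor genes eya and so were below 1 in both groups per the authors' deposited table. erm itself had an authors' mean abundance of 49.2 in dFezf1 and 55.1 in WT, with an adjusted p of 0.986 per the authors' deposited table. Of 7 glial markers 2 were called, drpr and gcm, and the list summed to 33.5 in dFezf1 and 11.6 in WT per the authors' deposited table, most of it drpr. The defining glial gene repo had 0.356 in dFezf1 and 0.162 in WT, and the rhodopsin gene ninaE was at 0 in both groups per the authors' deposited table. The 5 photoreceptor markers summed to 16.1 in dFezf1 and 9.57 in WT, nearly all of it norpA, with 0 of 3 tested genes called per the authors' deposited table. The 6 markers of other lamina neurons summed to 2.72 in dFezf1 and 0.433 in WT with svp called, and the 7 markers of hemocytes, fat body and muscle to 1.68 in dFezf1 and 0.193 in WT with Fbp2 called, per the authors' deposited table. The part of other cells in the results below was not tested.

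scribbler and pangolin were the members called. sbb (FBgn0010575, chromosome 2R, 18278198 to 18357296, minus strand, build BDGP6), also known as brakeless, encodes a nuclear co-repressor that photoreceptor axons need to choose their target layer. Its authors' mean abundance was 93.8 in dFezf1 and 22.6 in WT per the authors' deposited table. The dFezf1 mean was thus 4.15 times that in WT, which moved sbb to rank 11 of 63 by level in dFezf1, against rank 54 in WT. Its log2 fold change was 1.99 ± 0.39 (SE), with a 95% interval of 1.23 to 2.75 and an adjusted p of 9.34e-06 per the authors' deposited table. pan (FBgn0085432, chromosome 4, 69326 to 114270, plus strand) encodes the TCF/LEF factor, an HMG-box protein that carries Wnt signals to DNA. Its authors' mean abundance was 49.4 in dFezf1 and 25.1 in WT, its log2 fold change was 1.07 ± 0.33 (SE) and its adjusted p 0.0237 per the authors' deposited table. The 95% interval for pan was 0.41 to 1.72 per the authors' deposited table, and its call was lost at a threshold of 0.01. The co-activator that pan binds in Wnt signalling, beta-catenin, is encoded by armadillo (arm), another member. arm had an authors' mean abundance of 109 in dFezf1 and 108 in WT, and its log2 fold change was 0.05 ± 0.25 with an interval of -0.45 to 0.54 per the authors' deposited table.

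**Figure D1:**
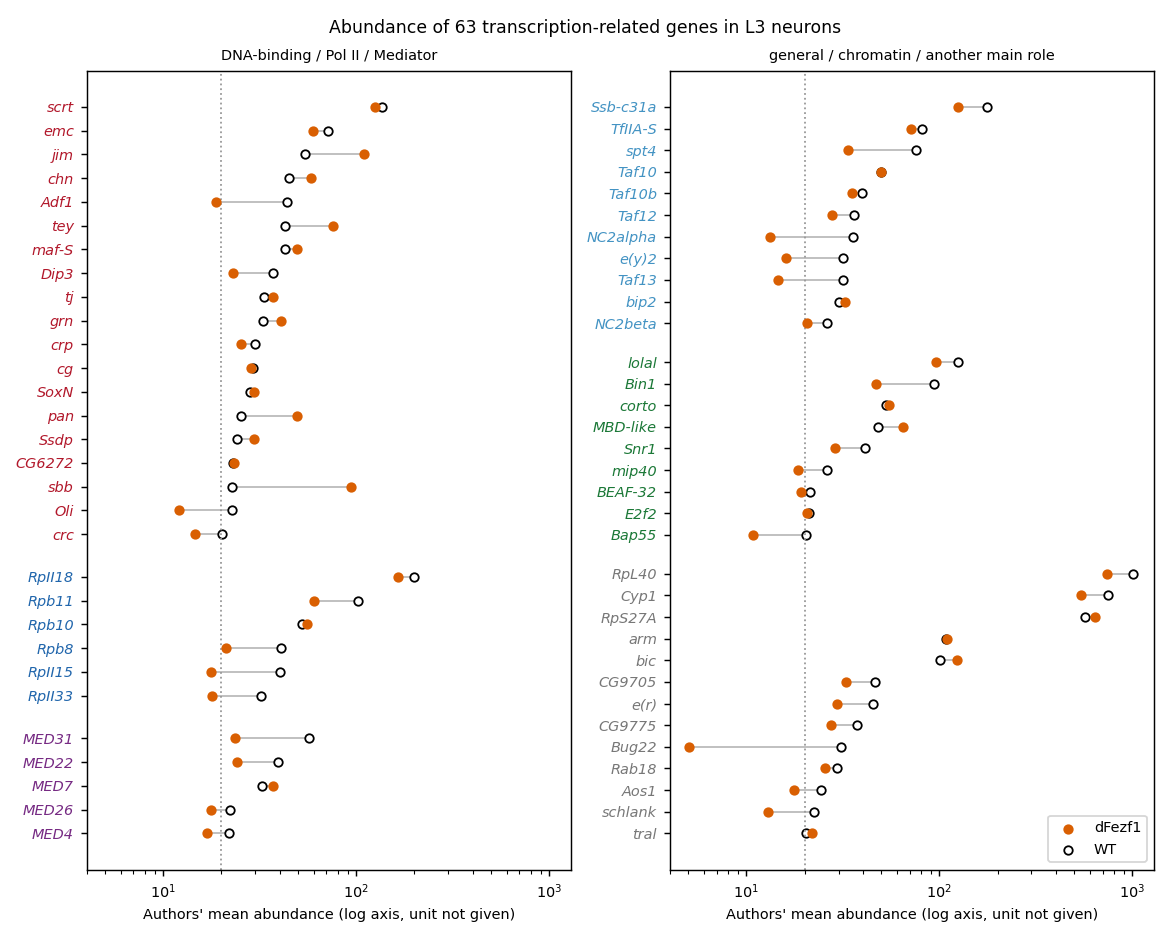
Authors' mean abundance of each of the 63 members (log axis, unit not given), with dFezf1 as filled and WT as open circles joined by a line, ordered within role groups by the WT mean and coloured by group; the dotted line is the level of 20 that chose the members. The wide gaps to the right are sbb (93.8 in dFezf1 and 22.6 in WT), jim, tey and pan, and the widest gap to the left is Bug22 (5.07 in dFezf1 and 31 in WT).

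The other genes in the group of DNA-binding factors and partners spanned both directions without a call. The most abundant was scratch (scrt), a neuronal zinc-finger gene of the Snail family, with an authors' mean abundance of 125 in dFezf1 and 136 in WT. It also had the highest mean normalized count of the members, 73282 per the authors' deposited table, and a log2 fold change of 0.01 ± 0.33 with an interval of -0.64 to 0.66. jim, a zinc-finger gene, had 109 in dFezf1 and 54.1 in WT per the authors' deposited table. That is 2.01 times the WT mean, about as wide a gap as that of pan, but its log2 fold change of 0.90 ± 0.40 had an adjusted p of 0.242 per the authors' deposited table. Its interval, 0.11 to 1.69, excluded 0, as did that of no other uncalled member on the higher side. teyrha-meyrha (tey) had 76.1 in dFezf1 and 42.6 in WT, and a log2 fold change of 0.73 ± 0.46 per the authors' deposited table. charlatan (chn), a zinc-finger gene needed for sensory neuron development, had 58.3 in dFezf1 and 44.7 in WT, with 0.45 ± 0.30 in log2 units per the authors' deposited table.

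The DNA-binding members grn, tj, SoxN and cg and the partner gene Ssdp were not called. grain (grn), the GATA factor of motor neuron axon guidance, had 40.9 in dFezf1 and 33.0 in WT, and traffic jam (tj), a large Maf factor, had 37.1 in dFezf1 and 33.4 in WT per the authors' deposited table. The 95% interval of the log2 fold change was -0.15 to 1.04 for grn and -0.34 to 0.88 for tj, so an increase past a doubling lay within that of grn. SoxNeuro (SoxN), a SoxB gene of neural development, had 29.5 in dFezf1 and 28.1 in WT, and its log2 fold change was 0.19 ± 0.39 with an interval of -0.58 to 0.96 per the authors' deposited table. combgap (cg), a zinc-finger gene first described in limb and optic lobe patterning, had 28.5 in dFezf1 and 29.2 in WT. Its interval of -0.48 to 0.51 per the authors' deposited table was among the narrow ones. Ssdp, a partner of the LIM-domain cofactor Chip, had 29.5 in dFezf1 and 24.0 in WT with 0.41 ± 0.36 in log2 units and an interval of -0.29 to 1.11 per the authors' deposited table.

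Among the helix-loop-helix and leucine-zipper genes no member was called. extra macrochaetae (emc), which lacks a basic region and blocks proneural partners, had 59.9 in dFezf1 and 71.4 in WT, with a log2 fold change of -0.17 ± 0.24 per the authors' deposited table. cropped (crp), the AP-4 homologue, had 25.2 in dFezf1 and 29.9 in WT, and Oli, of the Olig family, had 12.1 in dFezf1 and 22.6 in WT per the authors' deposited table. The interval for Oli, -1.86 to 0.66, was wide enough to hold both a large decrease and a small increase. Of the bZIP genes, maf-S (small Maf) had 49.1 in dFezf1 and 42.5 in WT, CG6272 (now Irbp18) 23.2 in dFezf1 and 22.9 in WT, and crc, the ATF4 homologue of the stress response, 14.6 in dFezf1 and 20.2 in WT per the authors' deposited table. In the annotation crc shares 2515 of its 3423 exon bases with CG46314 on the same strand, so reads from the shared bases cannot be told from those of that gene. Adf1 and Dip3 (now Dlip3) both encode factors with a MADF domain. Adf1 had 18.7 in dFezf1 and 43.8 in WT, a log2 fold change of -1.02 ± 0.50 with an adjusted p of 0.307 per the authors' deposited table. Dip3 had 23.0 in dFezf1 and 37.2 in WT, with -0.62 ± 0.48 in log2 units per the authors' deposited table.

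**Figure D2:**
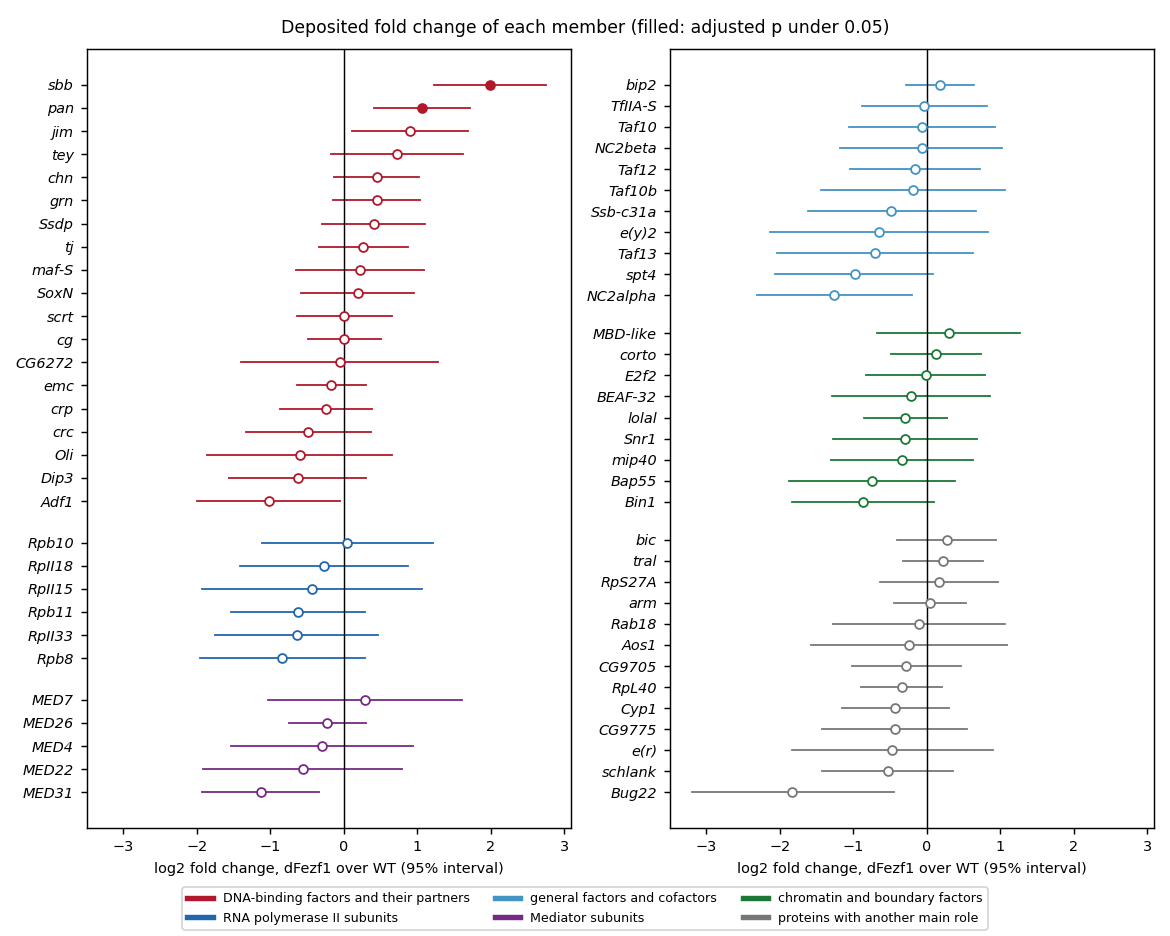
Log2 fold change of dFezf1 over WT for each of the 63 members per the authors' deposited table, as points with 95% intervals (normal, from the deposited SE), ordered by fold change within role groups and coloured by group; filled points have an adjusted p under 0.05. Filled points are sbb at 1.99 and pan at 1.07, and most intervals of the polymerase, Mediator and general factor genes reach more than 1 log2 unit to each side of the point.

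None of the polymerase and general factor genes was called. Of 6 RNA polymerase II subunit genes, 5 had a log2 fold change below 0, with a median of -0.53 per the authors' deposited table; of the other genes with a WT abundance of at least 20, 69.7% were below 0. RpII18 (now Polr2F), which encodes a subunit shared by all 3 nuclear RNA polymerases of the fly, had 165 in dFezf1 and 198 in WT per the authors' deposited table. Rpb11 had 60.3 in dFezf1 and 102 in WT, and Rpb8 had 21.1 in dFezf1 and 40.9 in WT per the authors' deposited table. Their log2 fold changes were -0.62 ± 0.46 for Rpb11 and -0.84 ± 0.57 for Rpb8, with adjusted p of 0.594 and 0.543 per the authors' deposited table. Rpb10 was the exception with 55.5 in dFezf1 and 52.1 in WT. RpII33 had 17.8 in dFezf1 and 32.2 in WT, and RpII15 had 17.6 in dFezf1 and 40.4 in WT per the authors' deposited table. For RpII15 the gap between the means was wider than its shrunken log2 fold change of -0.43 ± 0.77, which had the largest SE of all members per the authors' deposited table.

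Of the 11 general factors and cofactors, 10 had a log2 fold change below 0, with a median of -0.19 per the authors' deposited table. Those of the TFIID complex differed among themselves. Taf10 and bip2 (now Taf3) had means slightly higher in dFezf1. Taf10 had 50.1 in dFezf1 and 49.7 in WT, Taf10b had 35.1 in dFezf1 and 39.6 in WT, and Taf12 had 27.8 in dFezf1 and 36.2 in WT per the authors' deposited table. Taf13 had 14.5 in dFezf1 and 31.8 in WT, with a log2 fold change of -0.71 ± 0.68 per the authors' deposited table. bip2 had 32.6 in dFezf1 and 30.0 in WT, and its SE of 0.23 was the smallest among the members. The NC2 repressor is a dimer that sits on TBP at the promoter. Its NC2alpha gene had 13.2 in dFezf1 and 35.5 in WT, with -1.26 ± 0.54 in log2 units and an adjusted p of 0.197, and its NC2beta gene had 20.5 in dFezf1 and 26.2 in WT, with -0.07 ± 0.56, per the authors' deposited table. Whether the 2 subunits differ from each other was not tested. The elongation factor gene spt4 had 33.5 in dFezf1 and 75.6 in WT, and a log2 fold change of -0.98 ± 0.55 with an adjusted p of 0.415 per the authors' deposited table. TfIIA-S, a subunit of TFIIA, had 71.2 in dFezf1 and 81.4 in WT, and Ssb-c31a, the PC4 homologue and most abundant gene of the group, had 125 in dFezf1 and 177 in WT per the authors' deposited table. e(y)2, a subunit of the SAGA co-activator, had 16 in dFezf1 and 31.8 in WT, at the lowest mean normalized count of the members, 449, per the authors' deposited table.

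Mediator was represented by 5 subunit genes. MED31 had 23.5 in dFezf1 and 56.9 in WT, a log2 fold change of -1.13 ± 0.41 and an interval of -1.93 to -0.33 per the authors' deposited table. Its adjusted p of 0.0779 was the closest of the uncalled members to the threshold. MED22 had 24.2 in dFezf1 and 39.4 in WT, and MED4 had 16.9 in dFezf1 and 21.9 in WT per the authors' deposited table. MED26, with 17.6 in dFezf1 and 22.2 in WT, was the most precisely measured subunit gene at -0.22 ± 0.27 in log2 units per the authors' deposited table. MED7 had a higher mean in dFezf1, 37.2, against 32.4 in WT, with an interval of -1.03 to 1.61 per the authors' deposited table.

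Chromatin and boundary factors showed no call in 9 genes, and 7 of the 9 had a log2 fold change below 0 per the authors' deposited table. Bin1, the SAP18 homologue of a histone deacetylase complex, had 46.8 in dFezf1 and 94.2 in WT, with -0.87 ± 0.49 in log2 units and an adjusted p of 0.424 per the authors' deposited table. In the annotation 301 of its 3336 exon bases overlap sra on the opposite strand. The Brahma remodelling subunit genes Snr1 and Bap55 had 28.8 and 10.8 in dFezf1, and 41.2 and 20.4 in WT, per the authors' deposited table. lolal, a BTB-domain partner of the GAGA factor, had 95.6 in dFezf1 and 125 in WT with -0.29 ± 0.29 in log2 units per the authors' deposited table. The repressive cell-cycle factor E2f2 had 20.7 in dFezf1 and 21.1 in WT, and mip40, a subunit of the same dREAM complex, had 18.5 in dFezf1 and 26.3 in WT per the authors' deposited table. The boundary element factor gene BEAF-32 had 19.2 in dFezf1 and 21.3 in WT per the authors' deposited table. Means were higher in dFezf1 for MBD-like, a subunit gene of the NuRD complex, with 64.4 in dFezf1 and 48.0 in WT, and for corto, a Polycomb and trithorax partner, with 54.8 in dFezf1 and 52.8 in WT, per the authors' deposited table.

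The 13 genes with another main role also had no call. RpL40 had 742 in dFezf1 and 1012 in WT, and RpS27A had 641 in dFezf1 and 565 in WT per the authors' deposited table. Both encode ubiquitin fused to a ribosomal protein, and the ubiquitin part is near-identical to other fly ubiquitin genes, so how reads were shared among these genes is uncertain. Cyp1 had 540 in dFezf1 and 750 in WT, with -0.43 ± 0.37 in log2 units per the authors' deposited table. bicaudal (bic), a subunit of the nascent-chain complex at the ribosome, had 124 in dFezf1 and 101 in WT, and trailer hitch (tral), of cytoplasmic RNA granules, had 21.9 in dFezf1 and 20.3 in WT per the authors' deposited table. The widest gap of means in all 63 members was that of Bug22, which encodes a basal body and cilium protein, with 5.07 in dFezf1 and 31 in WT per the authors' deposited table. Its log2 fold change was -1.83 ± 0.70 with an interval of -3.20 to -0.45 and an adjusted p of 0.11 per the authors' deposited table. schlank, a ceramide synthase gene with a homeodomain, had 13.0 in dFezf1 and 22.3 in WT, and the SUMO-activating enzyme gene Aos1 had 17.6 in dFezf1 and 24.4 in WT per the authors' deposited table. e(r) had 29.5 in dFezf1 and 45.2 in WT, CG9705, a cold shock domain gene, had 32.7 in dFezf1 and 46.4 in WT, and CG9775 had 27.4 in dFezf1 and 37.6 in WT per the authors' deposited table. Rab18, a small GTPase gene, had 25.6 in dFezf1 and 29.5 in WT per the authors' deposited table.

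Taken over all members, 42 of 63 (66.7%) had a log2 fold change below 0, with a median of -0.22 per the authors' deposited table. Among all 9387 genes with an adjusted p 48.5% were below 0 with a median of 0.03, and among the 1098 other genes with a WT abundance of at least 20 the values were 69.7% and -0.21. The members' share is thus near that of other genes chosen on the WT level. Choosing the same category on the dFezf1 mean instead, at 20 or more, gave 58 genes with 44.8% below 0 and a median of 0.05 per the authors' deposited table. How many fold changes are above or below 0 therefore depends on which group sets the level.

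The direction of the fold change went with role group and gene length, but the role groups and length classes were set with the values known. The co-repressor gene sbb and the partner gene Ssdp were counted in the DNA-binding group. E2f2 and BEAF-32 were counted as chromatin and boundary factors. These splits are therefore a description. Of the 19 DNA-binding factors and partners 12 had a log2 fold change above 0, with a median of 0.19, against 9 of 44 members in the other 5 groups, with a median of -0.29, per the authors' deposited table. The DNA-binding genes are also longer, with a median exon length of 4026 bases against 1095 in the other 5 groups. Of 19 members with at least 3000 exon bases 15 were above 0, and of 44 shorter members 6 were, per the authors' deposited table. Within the DNA-binding group 11 of 13 long genes and 1 of 6 shorter genes (maf-S) were above 0, and within the other 5 groups 4 of 6 long genes (arm, corto, bip2 and tral) and 5 of 38 shorter ones were. The other genes with a WT abundance of at least 20 also had most genes above 0 in the longest class, with 131 of 217 genes of at least 3000 exon bases above 0 and a median log2 fold change of 0.15, against 97 of 485 of 1000 up to 3000 bases with a median of -0.30 and 100 of 387 under 1000 bases with a median of -0.23 per the authors' deposited table. Across members, exon length and log2 fold change had a Spearman correlation of 0.44 (63 genes), and across the other genes at that level one of 0.18 (1089 genes). Genes of the same libraries are not independent. Longer members also had more reads, with a median mean normalized count of 8286 at 3000 bases and over, against 1114 in shorter members. Their SE was smaller, with a Spearman correlation of -0.67 between exon length and the SE across members. Whether length or role is behind the direction of a member was not tested.

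**Figure D3:**
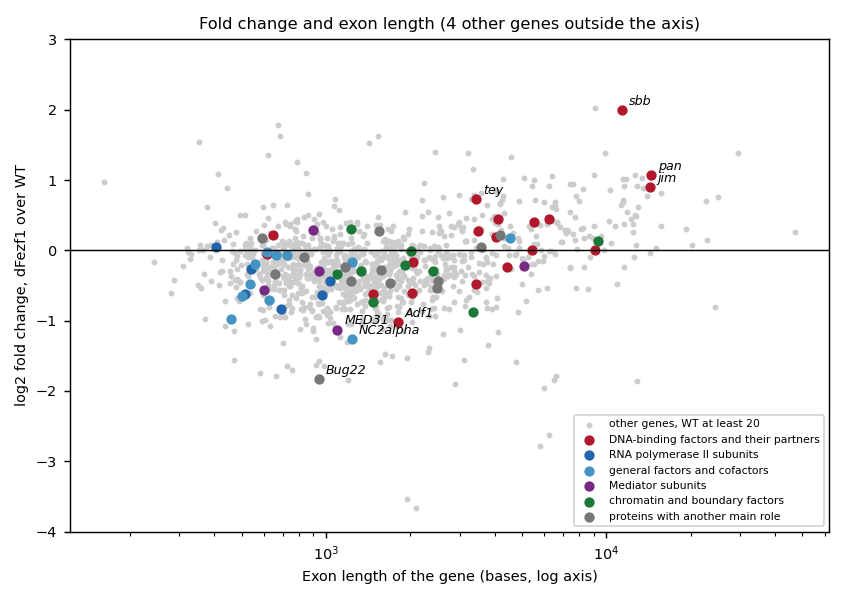
Log2 fold change of dFezf1 over WT per the authors' deposited table against the exon length of the gene in build BDGP6 (bases, log axis), with members coloured by role and the other genes with a WT abundance of at least 20 in grey; 4 of the grey genes lie outside the axis. Of the 19 members with at least 3000 exon bases 15 lie above 0, with sbb, pan and jim at the upper right, and of the 44 shorter members 6 do.

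Precision differed between members with their read counts. The SE ranged from 0.23 to 0.77 on the log2 scale with a median of 0.46, and its Spearman correlation with the mean normalized count was -0.83 across the 63 members per the authors' deposited table. For 17 members (27%) the 95% interval lay wholly between -1 and 1, that is within a doubling or halving of the shrunken fold, per the authors' deposited table, against 29.2% of the other genes at that WT level. Those 17 include scrt, arm, emc, corto, cg, lolal, bip2, E2f2 and RpL40. None of the 6 polymerase subunit genes is among them. The intervals of all 6 reached below -1, and those of Rpb10 and RpII15 also above 1. In 4 members (scrt, Taf10, cg and CG6272) the sign of the log2 fold change differed from that of the difference between the group means, each with a fold change within 0.07 of 0 per the authors' deposited table.

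Across the 63 members the dFezf1 and WT means had a Spearman correlation of 0.76, against 0.87 across 1089 other genes with a WT abundance of at least 20 and 0.86 across 417 other tested rows of the category. The largest WT mean was 1012 in the members, 7403 in the other genes and 105 in the other rows. With such unlike ranges the correlations cannot show that members changed rank more. Of the 12 members most abundant in WT, 9 were among the 12 most abundant in dFezf1 per the authors' deposited table. In dFezf1 16 of the members had a mean below 20. Just inside the level of 20 in WT lay crc, tral, Bap55 and E2f2, at 20.2 to 21.1, and just outside it Smox, Taf6, Rpb5 and exd, at 19.8 to 18.5. Among these 8 genes tral, Smox and Taf6 had a higher mean in dFezf1, while Rpb5, a further polymerase subunit gene, had 7.19 in dFezf1 and 18.9 in WT, with a log2 fold change of -1.12 ± 0.69 per the authors' deposited table.

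By position the members lay on chromosome arms 2L (16), 3R (15), 2R (13), 3L (9) and X (7), and on chromosome 4 (3). Chromosome 4 held 4.76% of the members and 0.836% of all tested genes, and its members were pan, MED26 and bip2. In the annotation 29 of the 63 members share exon bases with another gene or element, in most cases a short stretch on the opposite strand. Of 38 such overlaps 21 are with a gene that has an adjusted p per the authors' deposited table, and none of those was called; the partners in the other 17 have none and could not be called. For sbb the overlaps are 565 bases with pen-2 and 66 with CG14502, of 11326 exon bases. pan overlaps transposon insertions.

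The rows of the same category outside the members had a share of calls near that of all tested genes. Of 559 such rows, 554 were below the WT level and 5 were left out by name. With an adjusted p were 419, of which 6.92% were called, 6.21% (26) higher and 0.716% (3) lower in dFezf1 per the authors' deposited table. Of all tested genes 6.82% were called, 4.33% higher and 2.49% lower. Most of the other rows lie below the WT level, which enters the comparison, so the direction of their calls is a description. Of the 29 calls 13 had WT listed at 0, and in 1 the gene identifier and the symbol did not belong together. Choosing on the dFezf1 mean would have added 11 genes. Each has a dFezf1 mean of at least 20 and a WT mean under 20, so that choice set their direction. Of the 11, 4 were called higher. These were the SUMO ligase-related gene tna, with 81.1 in dFezf1 and 14.7 in WT, the pipsqueak-domain gene danr, with 80.6 in dFezf1 and 2.53 in WT, the homeobox gene NK7.1, with 25.4 in dFezf1 and 2.5 in WT, and the gene deposited as Side and now named Sidpn, with 25.1 in dFezf1 and 5.43 in WT, per the authors' deposited table. By log2 fold change danr had 4.77 ± 0.37, NK7.1 2.71 ± 0.60, tna 2.45 ± 0.27 and Sidpn 2.26 ± 0.48 per the authors' deposited table. luna, with 36.2 in dFezf1 and 3.8 in WT, was not called, with a log2 fold change of 0.57 ± 0.66. On the lower side were noc, with 1.15 in dFezf1 and 12.4 in WT, elB, its zinc-finger paralogue, with 0.695 in dFezf1 and 8.9 in WT, and Pbp95, with 0.0943 in dFezf1 and 2.16 in WT, per the authors' deposited table.

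**Figure D4:**
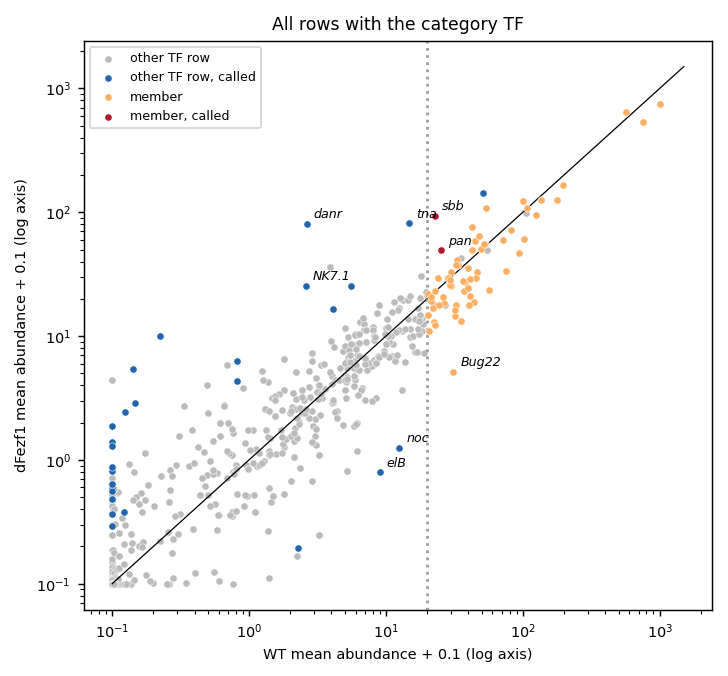
Authors' mean abundance in dFezf1 against that in WT for all 622 rows of the category, each with 0.1 added (log axes); the diagonal marks equal means and the dotted line the WT level of 20. The called members are sbb and pan, and the called rows farthest above the diagonal at high dFezf1 levels are danr, tna and NK7.1, all left of the line.

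By DNA-binding family, calls outside the members were few in each of 13 lists. For reference, 6.82% of all tested genes were called, 4.33% higher and 2.49% lower, and 6.92% of the other tested rows of the category. Most lists are too short for their counts to be told from these shares. In the authors' deposited table, 5 of 32 tested genes of the homeobox list that are not members were higher and none lower. No member was on that list, but scro and zfh2 reached the WT level and were left out by name. The member schlank, with a homeodomain, was not on the list. Of 28 other zinc-finger (C2H2) genes 2 were higher and 2 lower (noc and elB), while the members scrt, jim and cg were not called. For the bHLH list 2 of 27 others were higher and 0 of 3 members were called, and for the bZIP list 1 of 7 others was higher and 0 of 4 members were called per the authors' deposited table. The HMG-box list was the reverse, with pan called and SoxN not, and 0 of 6 others called. The BTB and insulator list had 2 of 9 others higher, and its member BEAF-32 was not called. Forkhead (1 of 7), ETS (1 of 4) and the SMAD, STAT, Rel, NFAT and MADS list (1 of 10) each had 1 gene higher, no member and no gene lower per the authors' deposited table. The forkhead gene called was slp1, with 144 in dFezf1 and 51.3 in WT, which reached the WT level and was left out by name. Of the T-box, GATA and Runt list 0 of 7 others and not the member grn were called, of the E2F list 0 of 8 others and not the member E2f2, and of the nuclear receptors 0 of 3. For the general and Mediator list 1 of 35 others was higher (MED20) and 0 of 11 members were called per the authors' deposited table. Among the others tested, the bHLH list also holds per and kn, the zinc-finger list stwl, and the general and Mediator list Nf-YA, Nf-YB, Nf-YC and NfI, which are not of the family named. Without them the counts were 2 of 25 higher for bHLH, 2 of 27 higher and 2 lower for the zinc fingers, and 1 of 31 higher for the general and Mediator list. The lists are also incomplete. The zinc-finger list leaves out the member chn, and the general and Mediator list leaves out the members MED26, NC2alpha and NC2beta. Genes outside the members were matched by deposited symbol only, so a renamed gene such as Sidpn could be missed. Of the 29 calls among the other rows of the category, 13 had WT listed at 0, and in 16 the 95% interval excluded 0. Some calls counted in these lists therefore rest on means near 0. Whether families differ in their share of calls was not tested.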

How the data were processed

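RNA of sorted L3 neurons was extracted with a column kit and, per the labels' protocols, made into Smart-seq2 libraries with Nextera reagents. Per the submitters' processing notes, STAR, Salmon, DESeq2, FastQC and build BDGP6 were used; no source used here ties a tool to a column. Per the file headers, the authors deposited a comparison of dFezf1 with WT: a mean normalized count and group means (signal values), a log2 fold change with its SE, a test statistic (a score), p-values and adjusted p-values. Fold changes are shrunken, so they understate gaps in genes with few reads. The 2 tables also hold 12 library columns whose codes fit no label, which were not used, so depth per library is not given and the planned count tests were not run. Replicates are described in the series' design text as biological, and the adjusted p-values rest on 3 samples a group.

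Members were taken by the rule (category exactly TF, WT mean of at least 20, 27 names left out). The ratio of mean normalized count to group mean had a Spearman correlation of 0.953 with exon length across 5001 genes. Intervals are normal 95% intervals from the deposited SE. Positions and exon lengths are from the BDGP6 annotation (61 members by identifier, 2 by symbol), and all 63 starts equalled the deposited ones. No sequence is shown and promoter motifs were not searched. The members and lists were chosen with earlier results of these data known. Named genes were to be called members, the 12 most abundant, extremes of fold change, those nearest the level and up to 4 per family list; members outside that rule, noc, elB, Pbp95 and MED20 were named after their values were seen, and the role groups, length classes and genes taken out of family lists were also set then. Adjusted p-values over subsets used Benjamini-Hochberg, tested on simulated data (Python 3.11.15, pandas 2.3.3, numpy 2.4.6, SciPy 1.17.1).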

Additional observations from a re-analysis of the deposited data

How the results depend on the processing

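With calls at an adjusted p under 0.01, 1 member (sbb) was called and higher, since pan had 0.0237. Restricting the genes to a mean normalized count of at least 100, to means above 0 in both groups, or to 95% intervals that exclude 0 left 2 members called higher and 0 lower. A WT level of at least 10 gave 111 genes with 4 calls (3 higher, 1 lower), and a level of at least 50 gave 18 genes with 0 calls. With the dFezf1 mean or the larger mean at 20 or more, 6 genes were called, all higher. Those other than sbb and pan had a WT mean under 20, so for them the choice set the direction. For the other rows of the category, 12 were called with mean normalized counts from 100 upward, 13 above 0 in both groups and 16 where the interval excludes 0, against 29. For all genes these counts were 297, 254 and 359, against 640. The median log2 fold change of members was -0.22, and -0.31 from the group means plus 1; it was 0.05 when the dFezf1 mean chose the genes. No paired analysis was possible because the columns carry no replicate number and the labels share none between groups. Leaving out replicates and the count tests could not be run, as no column of counts has a sample, and promoter motifs were not searched because no sequence table was used here. Precision limits small changes: for 17 of 63 members the 95% interval lay within 1 log2 unit of 0.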
